A study of Mus musculus with 15 samples.

Results

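A set of 9 genes for calcium-binding, membrane-binding and actin-binding proteins was followed across sorted myeloid progenitors of mouse bone marrow: the S100 genes S100a1, S100a4, S100a6, S100a10, S100a11 and S100a13, the annexin genes Anxa1 and Anxa2, and the tropomyosin gene Tpm4. They are 9 of the 23337 gene symbols counted in every library, and all 9 passed the filter on low counts that left 15181 genes for testing. The set was drawn up because S100a6 and Tpm4 were lower in Trappc1 knockout (KO) than in wild-type (WT) granulocyte-monocyte progenitors (GMP). That comparison is therefore described here with values and no test. For S100a6 and Tpm4, comparisons that reuse the GMP libraries are also descriptions only. KO against WT in common myeloid progenitors (CMP) used no library of the selecting comparison and was tested for all 9 genes.

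RNA of untreated cells was sequenced in 15 libraries, with 4 each for WT CMP, KO CMP and WT GMP and 3 for KO GMP. Both progenitors were sorted as lineage-negative, Sca1-negative, CD117-positive and CD34-positive cells, with low CD16/32 for CMP and high CD16/32 for GMP. The KO groups carry the genotype Trappc1KO and the WT groups Trappc1WT, and Trappc1 encodes a subunit of the TRAPP vesicle-tethering complexes. The labels used here name no allele, Cre driver, strain or age. Libraries are numbered 1 to 4 within a group, and KO GMP has numbers 1, 3 and 4. Nothing in the labels ties a library to an animal of its own, and the p-values reflect only how far these libraries vary, which may be technical variation.

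S100 proteins are small EF-hand proteins that change shape when they bind calcium and then dock onto partner proteins. Annexins bind acidic phospholipids of membranes in a calcium-dependent way. The families meet in stable complexes, in which an S100 dimer bridges annexins: S100A10 with annexin A2, and S100A11 with annexin A1. Tropomyosins lie along actin filaments and govern which motors and severing proteins reach them, and Tpm4 is a cytoplasmic form known for its role in platelet formation. In myeloid cells, annexin A1 is known as a brake on inflammation and S100A4 for binding non-muscle myosin.

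Most of the S100 genes lie together on chromosome 3. On GRCm38 with GENCODE M21, S100a1 (ENSMUSG00000044080.9, chr3:90511034-90514392, minus strand) lies next to S100a13 (ENSMUSG00000042312.9, chr3:90514435-90524581, plus strand), and S100a4 (ENSMUSG00000001020.8, chr3:90603771-90606045, plus strand) is followed by S100a5 and S100a6 (ENSMUSG00000001025.8, chr3:90612882-90624181, plus strand). S100a11 (ENSMUSG00000027907.4, chr3:93520488-93526287, plus strand) and S100a10 (ENSMUSG00000041959.14, chr3:93555080-93564643, plus strand) form a second site on the same chromosome. Tpm4 (ENSMUSG00000031799.9, chr8:72134975-72153142, plus strand), Anxa2 (ENSMUSG00000032231.14, chr9:69453620-69491795, plus strand) and Anxa1 (ENSMUSG00000024659.15, chr19:20373428-20390944, minus strand) lie elsewhere. The values cover whole genes, so no exon, intron or UTR is told apart. Tpm4, Anxa2 and Anxa1 overlap noncoding genes on the opposite strand, S100a4 overlaps Gm42674 on its own strand, and S100a11 has a processed pseudogene, S100a11-ps, on chromosome 12. The labels give no strand setting for the counting, so reads of these overlapping features cannot be told apart from those of the 5 genes.

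The promoter sequences below show what lies before the RefSeq start of 4 of the genes that differed most between groups. These genes are the neighbours S100a4 and S100a6, which were lower in GMP than in CMP, S100a11, which was higher in GMP, and Tpm4. RefSeq (GRCm38.p6) gave a start for 8 of the 9 genes, S100a10 being the exception, and each line holds the 250 bases before that start, 5′ to 3′ on the gene's strand. Capitals mark exact matches, on either strand, to 7 short motifs: the TATA box (TATAAA), the AP-1 site (TGANTCA), the GC box (GGGCGG), the CRE (TGACGTCA), the CRE half-site (TGACGT, which the CRE contains), the CCAAT box (CCAAT) and the ETS core (GGAAGT).
S100a4, chr3:90603520-90603769, plus strand: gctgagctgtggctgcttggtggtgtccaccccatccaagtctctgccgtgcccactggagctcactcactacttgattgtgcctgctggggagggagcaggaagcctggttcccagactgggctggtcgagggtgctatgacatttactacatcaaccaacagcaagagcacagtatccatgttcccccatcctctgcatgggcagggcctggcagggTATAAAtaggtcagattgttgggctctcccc
S100a6, chr3:90612644-90612893, plus strand: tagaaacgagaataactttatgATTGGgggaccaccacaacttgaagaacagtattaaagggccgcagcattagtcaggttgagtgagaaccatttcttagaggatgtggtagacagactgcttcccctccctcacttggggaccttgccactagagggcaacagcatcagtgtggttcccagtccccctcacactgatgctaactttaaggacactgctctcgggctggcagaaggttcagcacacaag
S100a11, chr3:93520246-93520495, plus strand: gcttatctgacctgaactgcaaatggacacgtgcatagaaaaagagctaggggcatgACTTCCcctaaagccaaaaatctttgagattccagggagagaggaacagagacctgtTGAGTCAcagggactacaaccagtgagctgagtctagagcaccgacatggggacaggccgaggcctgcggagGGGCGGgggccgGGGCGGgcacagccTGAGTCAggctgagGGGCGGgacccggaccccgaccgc
Tpm4, chr8:72135038-72135287, plus strand: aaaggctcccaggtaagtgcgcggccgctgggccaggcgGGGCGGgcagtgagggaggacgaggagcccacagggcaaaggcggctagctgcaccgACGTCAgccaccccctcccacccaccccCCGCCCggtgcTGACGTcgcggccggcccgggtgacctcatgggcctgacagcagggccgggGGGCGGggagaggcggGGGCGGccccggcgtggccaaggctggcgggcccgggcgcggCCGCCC
The window of S100a4 held a TATA box 31 bases before the start, as did 12.4% of the 32851 RefSeq promoters of the same length. The window of S100a6 held only a CCAAT box on the minus strand, 228 bases before the start, a motif found in 33.8% of promoters. The window of S100a11 held 2 AP-1 sites, at 136 and 38 bases, with 3 GC boxes and an ETS core. AP-1 sites occurred in 6.75% of promoters, GC boxes in 32.7% and ETS cores in 19.7%. The window of Tpm4 was 78.8% G and C and held 5 GC boxes and 2 CRE half-sites, the latter found in 6.47% of promoters. By GENCODE that window lies wholly inside the Tpm4 gene, and 29 of its bases are annotated as Tpm4 UTR. The windows of S100a6 and S100a11 held 12 and 8 UTR bases of their own genes. Among windows not printed, those of Anxa1 and Anxa2 each held a TATA box, and that of Anxa2 also an AP-1 site. By GENCODE, all 250 bases of the Anxa1 window and 63 of the Anxa2 window are annotated as UTR of these genes. The motifs are matches of letters in a window, and no binding was measured.

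The libraries held 61.3 to 120.3 M units of estimated counts, where about 4 units stand for 1 sequenced fragment. Levels are given as CPM, the counts of a gene per 1 M counts of its library, scaled between libraries by TMM factors. The Trappc1 levels of KO and WT libraries did not overlap in either cell type, with 3.83 to 13.4 CPM in KO against 18.4 to 26.2 CPM in WT for CMP, and 6.09 to 25.2 against 30.9 to 41.3 CPM for GMP. An exact two-sided permutation test gave p = 0.0286 in CMP and p = 0.0571 in GMP, the smallest that each design allows. The libraries parted by number. KO CMP 1, KO CMP 2 and KO GMP 1 had the lowest Trappc1 and the only Xist levels above 2.17 CPM (109, 204 and 123 CPM), and on the first principal component they lay apart from the other KO libraries of their cell type. Results are therefore also given within numbers 1 and 2, within numbers 3 and 4, and without those 3 libraries. The labels do not link the numbers to a batch. As a check of the sort labels, 8 of 9 GMP marker genes rose from WT CMP to WT GMP in the edgeR test, where 11.3% of all genes rose, and the summed level of the 9 was 12149 to 25053 CPM in WT CMP and 40748 to 44042 CPM in WT GMP.

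By level per kilobase of exon, the same genes stood at the ends of the order in all 4 groups. S100a11 was the highest of the 9 in all 4 groups, at 308 ± 70.5 CPM per kb in WT CMP and 213 ± 41.4 in KO CMP (SD, n = 4 each), against 636 ± 96.0 in WT GMP (SD, n = 4) and 583 ± 195 in KO GMP (SD, n = 3). S100a6 was the lowest per kb in all 4 groups, from 4.48 ± 1.18 CPM per kb in KO GMP to 13.6 ± 2.93 in KO CMP, and S100a4 was next to it, with library ranges that overlapped in every group. Between these ends, S100a10 was second in both CMP groups and Anxa1 was second in both GMP groups. In WT CMP the order after S100a11 was S100a10, S100a1, Anxa1, S100a13, Anxa2, Tpm4, and each of these overlapped with its neighbour in the range over libraries. In WT GMP it was Anxa1, S100a1, S100a10, S100a13, Anxa2, Tpm4, with gaps between S100a11 and Anxa1, between S100a10 and S100a13, between Anxa2 and Tpm4, and between Tpm4 and S100a4. These ends depend on the division by length. By CPM without length, S100a4 was the lowest and S100a6 the next lowest in all 4 groups, and S100a11 was first in WT CMP only. The fewest reads stood behind S100a4, with 49.5 to 423 fragments per library, and S100a6, with 88.3 to 488. Per-gene values in the rest of the text are CPM without length and are compared only between libraries.

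**Figure D1:**
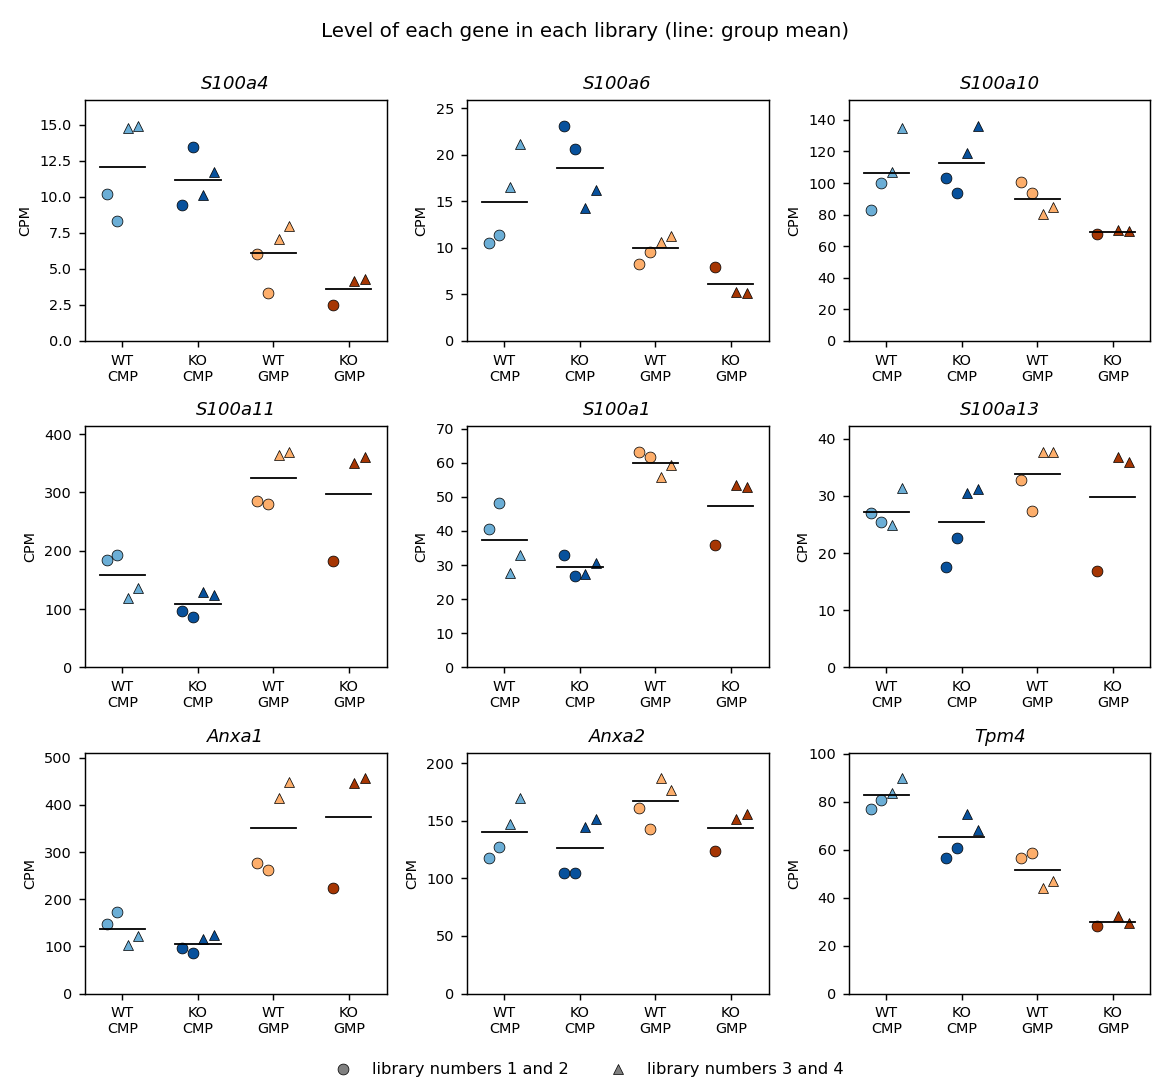
Level of each of the 9 genes (CPM, linear axis from 0) in every library, by group. Circles are libraries numbered 1 and 2, triangles those numbered 3 and 4, and the line is the group mean. S100a11 and Anxa1 are higher in every GMP library of a genotype than in its CMP libraries, Tpm4 is lower there, and all KO libraries of a cell type lie below its WT libraries for Tpm4.

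The first comparison asked how the genes differ between CMP and GMP, the step at which granulocyte and monocyte fate is set. S100a11, its partner Anxa1 and S100a1 rose from CMP to GMP in both genotypes, S100a4 fell in both, and S100a10 fell in KO. Of the 7 genes tested, 4 passed the threshold in WT (3 higher, 1 lower), where 25.5% of all tested genes passed (11.3% higher, 14.2% lower). In KO, 5 of the 7 passed (3 higher, 2 lower), where 21.2% of all genes did (10.7% higher, 10.5% lower). The median log2 change over all 9 genes was 0.25 in WT and 0.18 in KO, against -0.02 over all genes in each. In bulk RNA from sorted cells, fewer cells of a type and less RNA per cell cannot be told apart.

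S100a11 encodes an S100 protein that works in membrane repair and vesicle trafficking with annexins. It measured 183, 193, 119 and 135 CPM in WT CMP 1 to 4, and 285, 280, 365 and 369 CPM in WT GMP 1 to 4. In KO it measured 95.8, 86.3, 129 and 125 CPM in CMP 1 to 4 and 183, 350 and 360 CPM in GMP 1, 3 and 4. Every GMP library was above every CMP library of its genotype, and KO GMP 1 was the lowest of the GMP libraries. The log2 change from CMP to GMP was 1.04 ± 0.22 in WT (SE, adjusted p = 0.0040) and 1.45 ± 0.23 in KO (adjusted p = 0.00098). For S100a11 within numbers 1 and 2 the WT change was 0.59 and within numbers 3 and 4 it was 1.53, and the KO changes were 1.01 and 1.49. Both WT changes and the KO change within numbers 3 and 4 passed the threshold. The KO change within numbers 1 and 2 rests on a single GMP library, KO GMP 1, here and for the genes below, and is given as a value. The difference between sets was not tested for this step.

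Anxa1, the phospholipid-binding partner of S100A11, followed the same course. Its level was 147, 173, 103 and 121 CPM in WT CMP 1 to 4 and 277, 262, 415 and 448 CPM in WT GMP 1 to 4. In KO it was 96.1, 85.4, 116 and 124 CPM in CMP 1 to 4 and 223, 446 and 456 CPM in GMP 1, 3 and 4. CMP and GMP did not overlap in either genotype, and within GMP the libraries numbered 1 and 2 were the low ones. The log2 change was 1.36 ± 0.25 in WT (adjusted p = 0.0016) and 1.83 ± 0.26 in KO (adjusted p = 0.00063), the largest of the 7 tested genes in each genotype. Within number sets it was 0.75 and 1.94 in WT and 1.30 and 1.91 in KO, for numbers 1 and 2 and numbers 3 and 4. Each passed in WT, as did the KO change within numbers 3 and 4, and the 1.30 rests on KO GMP 1 alone.

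S100a1, best known as a regulator of calcium handling in muscle, was also higher in GMP. It measured 40.7, 48.4, 27.7 and 32.9 CPM in WT CMP 1 to 4 and 63.1, 61.8, 56.0 and 59.2 CPM in WT GMP 1 to 4. In KO it measured 32.9, 26.7, 27.4 and 30.5 CPM in CMP 1 to 4 and 36.0, 53.4 and 52.8 CPM in GMP 1, 3 and 4. The WT groups were well apart, whereas KO GMP 1 lay close to the highest KO CMP library. The log2 change was 0.68 ± 0.16 in WT (adjusted p = 0.0074) and 0.69 ± 0.17 in KO (adjusted p = 0.0107). The KO call was lost without KO GMP 3 (adjusted p = 0.0617) and without KO GMP 4 (adjusted p = 0.0572). In WT the change was 0.49 within numbers 1 and 2 (adjusted p = 0.0103) and 0.93 within numbers 3 and 4 (adjusted p = 5.97e-05). In KO it was 0.87 within numbers 3 and 4 (adjusted p = 9.61e-05) and 0.27 within numbers 1 and 2, where GMP is a single library.

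S100a4, a myosin-binding S100 protein linked to cell motility, went the other way. It measured 10.2, 8.31, 14.8 and 14.9 CPM in WT CMP 1 to 4 and 6.02, 3.31, 7.04 and 7.96 CPM in WT GMP 1 to 4. In KO it measured 9.43, 13.5, 10.1 and 11.7 CPM in CMP 1 to 4 and 2.47, 4.15 and 4.27 CPM in GMP 1, 3 and 4. The groups did not overlap in either genotype, and the margin was narrow in WT, between WT GMP 4 and WT CMP 2. S100a4 had a log2 change of -0.98 ± 0.27 in WT (adjusted p = 0.0173) and -1.62 ± 0.31 in KO (adjusted p = 0.0023). The WT call was lost without WT CMP 3 (adjusted p = 0.0583). By number set the change was -0.99 for both sets in WT and -1.38 for numbers 3 and 4 in KO, all past the threshold, and -2.21 for numbers 1 and 2 in KO, with KO GMP 1 as the single GMP library.

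S100a10 and Anxa2, the subunits of the annexin A2 heterotetramer that brings plasminogen to the cell surface, did not move together over this step. S100a10 measured 82.9, 100.1, 107 and 135 CPM in WT CMP 1 to 4 and 100.4, 93.8, 80.3 and 84.8 CPM in WT GMP 1 to 4. In KO it measured 103, 93.4, 119 and 136 CPM in CMP 1 to 4 and 67.7, 70.1 and 69.5 CPM in GMP 1, 3 and 4. The WT groups overlapped, and every KO GMP library was below every other library. S100a10 had a log2 change of -0.24 ± 0.14 in WT (adjusted p = 0.220) and -0.71 ± 0.15 in KO (adjusted p = 0.0049). In WT it was 0.09 within numbers 1 and 2 (adjusted p = 0.657) and -0.55 within numbers 3 and 4 (adjusted p = 0.0030), and in KO it was -0.54 within numbers 1 and 2, with 1 GMP library, and -0.87 within numbers 3 and 4, the latter past the threshold.

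Anxa2 ranged from 117 to 170 CPM in WT CMP, from 104 to 152 CPM in KO CMP, from 143 to 187 CPM in WT GMP and from 124 to 156 CPM in KO GMP. CMP and GMP overlapped in both genotypes. The log2 change from CMP to GMP was 0.25 ± 0.15 in WT (adjusted p = 0.244) and 0.18 ± 0.16 in KO (adjusted p = 0.472). With the library number as a block the WT change was 0.26 and passed (adjusted p = 0.0171), and it also passed within numbers 1 and 2 (0.31, adjusted p = 0.0205). The CPM ratio of S100a10 to Anxa2 was 0.71 to 0.79 in WT CMP, 0.82 to 0.99 in KO CMP, 0.43 to 0.66 in WT GMP and 0.45 to 0.55 in KO GMP. It was thus lower in every GMP library than in every CMP library, and in CMP all 4 KO libraries had a higher ratio than the 4 WT libraries.

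S100a13, an S100 protein that takes part in the release of FGF1 from cells, ranged from 24.9 to 31.4 CPM in WT CMP, 17.5 to 31.2 CPM in KO CMP, 27.4 to 37.7 CPM in WT GMP and 16.8 to 36.7 CPM in KO GMP. Its ranges overlapped between CMP and GMP in both genotypes. The log2 change was 0.32 ± 0.23 in WT (adjusted p = 0.338) and 0.23 ± 0.25 in KO (adjusted p = 0.582). The KO change was -0.26 within numbers 1 and 2, and the WT change passed within numbers 3 and 4 (0.42, adjusted p = 0.0255) and without KO CMP 1, KO CMP 2 and KO GMP 1 (0.31, adjusted p = 0.0432). KO CMP 1 and KO GMP 1, at 17.5 and 16.8 CPM, were the lowest of the 15 libraries for this gene.

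S100a6 and Tpm4 were chosen by their GMP values, so their change from CMP to GMP is given as a description. S100a6, or calcyclin, which binds the calcyclin-binding protein and is known from proliferating cells, had a log2 difference between GMP and CMP of -0.58 ± 0.23 in WT and -1.60 ± 0.26 in KO. Tpm4 had a difference of -0.68 ± 0.11 in WT and -1.12 ± 0.12 in KO. By number set, 1 and 2 first, the S100a6 difference was -0.29 and -0.78 in WT and -1.45 and -1.56 in KO, and the Tpm4 difference was -0.45 and -0.93 in WT and -1.06 and -1.22 in KO. For Tpm4 the CMP and GMP libraries did not overlap in either genotype. For S100a6 they overlapped in WT and not in KO.

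**Figure D2:**
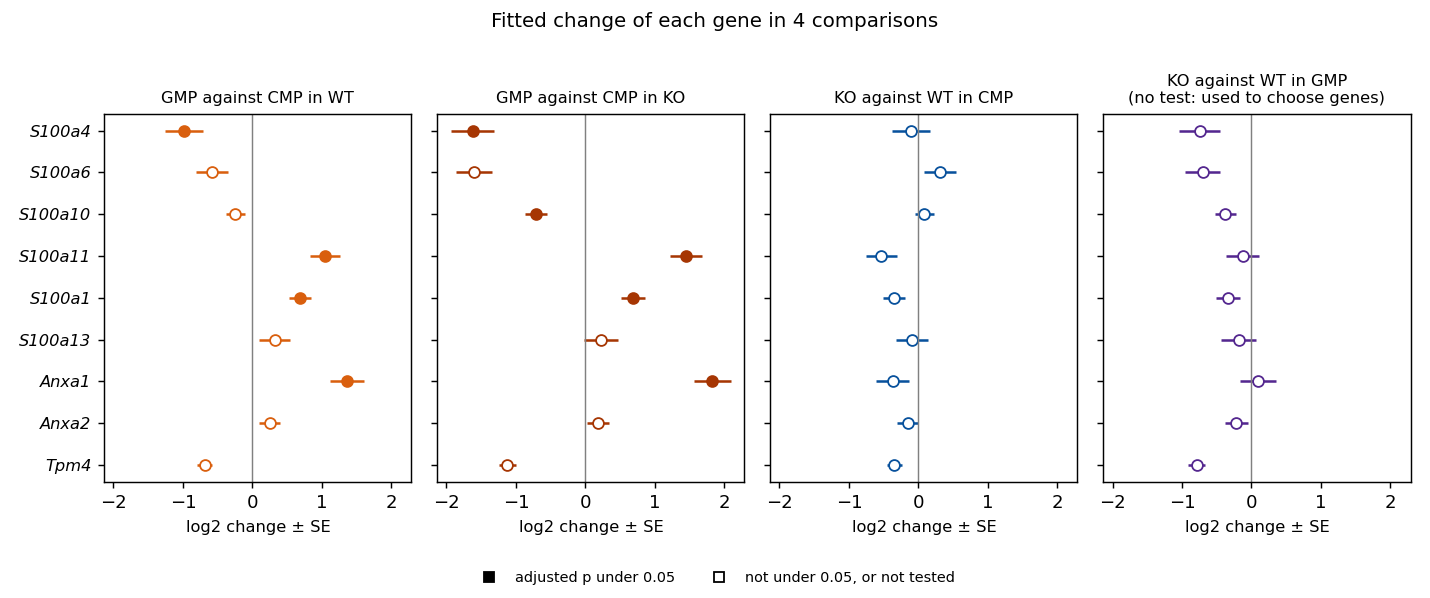
Fitted log2 change with its standard error for each gene in 4 comparisons, on a common axis. Filled points passed an adjusted p of 0.05, and open points did not or were not tested. S100a11, S100a1 and Anxa1 are filled and to the right in both steps from CMP to GMP, S100a4 is filled and to the left in both, and no point is filled for KO against WT.

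The next comparison asked how KO and WT differ in CMP. Over all 8 libraries, 0 of the 9 genes passed the threshold in the edgeR test, and the same was true of all 15181 genes (0%). At an unadjusted p under 0.05 there were 3 of the 9 genes, S100a1, S100a11 and Tpm4, all lower in KO, where 11.6% of all genes reached this level. DESeq2 called 0 of the 9 genes and 368 of all genes (2.42%). The median log2 change of the 9 genes was -0.15 against 0.01 over all genes, with 7 of 9 below 0, as were 48.6% of all genes.

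Tpm4 was the 1 gene of the 9 whose CMP groups did not overlap, which 3.6% of all genes did in the lower direction. It measured 76.9, 80.6, 83.4 and 89.6 CPM in WT CMP 1 to 4 and 56.4, 60.8, 74.6 and 68.2 CPM in KO CMP 1 to 4. Every KO library was below every WT library, and KO CMP 1 and KO CMP 2 were the lowest. The log2 change was -0.35 ± 0.11 (adjusted p = 0.254), a difference of -21.3%. It was -0.43 ± 0.08 within numbers 1 and 2 (adjusted p = 0.0030) and -0.28 ± 0.08 within numbers 3 and 4 (adjusted p = 0.310), and the difference between them did not pass its own test (-0.15 ± 0.12, adjusted p = 0.537).

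S100a6 in CMP depended on the library number. It measured 10.5 and 11.3 CPM in WT CMP 1 and 2 and 23.1 and 20.6 CPM in KO CMP 1 and 2. With numbers 3 and 4 it measured 16.5 and 21.2 CPM in WT CMP and 14.3 and 16.2 CPM in KO CMP. KO was above WT in the first set and below WT in the second, with no overlap within a set. The log2 change was 1.0 ± 0.14 within numbers 1 and 2 (adjusted p = 0.00027), -0.30 ± 0.14 within numbers 3 and 4 (adjusted p = 0.427) and 0.32 ± 0.23 over all 8 libraries (adjusted p = 0.662). The sets differed by 1.30 ± 0.19 (adjusted p = 0.0011). WT CMP alone also differed between sets, by -0.79 ± 0.14 (numbers 1 and 2 minus 3 and 4, adjusted p = 0.0019). With S100a6, 6 of the 9 genes passed this test between WT sets, where 22.9% of all genes did.

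S100a11 and Anxa1 fell in KO CMP within numbers 1 and 2 and did not pass within numbers 3 and 4. In the first set the KO libraries also had Xist at 109 and 204 CPM, against 2.17 and 0.83 CPM in WT, so for every change within numbers 1 and 2 in CMP the genotype and what Xist marks cannot be told apart. Trappc1 was at 5.56 and 3.83 CPM in KO CMP 1 and 2. It was at 11.7 and 13.4 CPM in KO CMP 3 and 4, against 18.8 and 25.2 CPM in WT CMP 3 and 4. A difference between sets thus cannot be told apart from the level of Trappc1 left. The log2 change of S100a11 was -1.05 ± 0.08 within numbers 1 and 2 (adjusted p = 2.08e-06) and -0.0018 ± 0.08 within numbers 3 and 4 (adjusted p = 0.9996), a difference of -1.04 ± 0.11 (adjusted p = 0.00011). For Anxa1 it was -0.82 ± 0.10 (adjusted p = 0.00012) and 0.10 ± 0.10 (adjusted p = 0.744), a difference of -0.92 ± 0.14 (adjusted p = 0.0017). Both genes were higher in WT CMP 1 and 2 than in WT CMP 3 and 4, by 0.56 ± 0.08 (adjusted p = 0.00044) and 0.51 ± 0.10 (adjusted p = 0.0043). S100a1 fell within numbers 1 and 2 (-0.58 ± 0.12, adjusted p = 0.0049), a call lost without WT CMP 2 (adjusted p = 0.0552), and measured -0.06 ± 0.12 within numbers 3 and 4 (adjusted p = 0.872). The difference between sets did not pass for S100a1 (-0.51 ± 0.17, adjusted p = 0.095), and passed without KO CMP 1 (adjusted p = 0.0302) or without WT CMP 4 (adjusted p = 0.0491).

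The other 4 genes passed in neither set in CMP. S100a4 had a log2 change of 0.31 ± 0.24 within numbers 1 and 2 and -0.44 ± 0.24 within numbers 3 and 4, S100a10 of 0.10 ± 0.12 and 0.07 ± 0.12, S100a13 of -0.38 ± 0.14 and 0.14 ± 0.13, and Anxa2 of -0.23 ± 0.09 and -0.10 ± 0.09. S100a13 passed within numbers 1 and 2 without KO CMP 2 (-0.58, adjusted p = 0.0149), WT CMP 3 (adjusted p = 0.0463) or WT CMP 4 (adjusted p = 0.0376), and its difference between sets passed without KO CMP 2 (adjusted p = 0.0285) or WT CMP 4 (adjusted p = 0.0439). Within numbers 1 and 2, 5 of the 9 genes thus passed (1 higher, 4 lower), where 18.5% of all genes did (8.23% higher, 10.2% lower). Within numbers 3 and 4, 0 of 9 passed in edgeR, where 0.00659% of all genes did. There, 2 of the 9 genes, S100a6 and Tpm4, had an unadjusted p under 0.05, as did 11.4% of all genes, and DESeq2 called 0 of 9 and 0.889% of all genes. The difference between sets passed for 3 of the 9 genes (1 higher, 2 lower), against 7.64% of all genes (3.05% higher, 4.59% lower). Without KO CMP 1, KO CMP 2 and KO GMP 1, 0 of the 9 genes passed.

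Markers of other cells moved with the number sets in CMP. The counts of markers below are by the edgeR test within numbers 1 and 2, where 8.23% of all genes were higher in KO and 10.2% lower. The 9 GMP markers, of which all 9 were lower in KO within numbers 1 and 2 in the edgeR test, summed to 4734 to 5442 CPM in KO CMP 1 and 2 and 22614 to 25053 CPM in WT CMP 1 and 2. Their sums were 12228 to 12732 CPM in KO CMP 3 and 4 and 12149 to 13092 CPM in WT CMP 3 and 4. The 11 monocyte and macrophage markers, 8 of them lower in the first set, summed to 348 to 554 CPM in KO and 1952 to 2191 CPM in WT there. They summed to 1354 to 1361 and 1603 to 1626 CPM in the second set. The 10 stromal and endothelial markers, 8 of them higher, summed to 294 to 340 CPM in KO and 134 to 139 CPM in WT with numbers 1 and 2, and to 152 to 153 and 155 to 160 CPM with numbers 3 and 4. The 9 stem and multipotent progenitor markers, 6 of them higher, summed to 834 to 864 CPM in KO and 569 to 585 CPM in WT with numbers 1 and 2, and to 684 to 716 and 750 to 803 CPM with numbers 3 and 4. The 7 megakaryocyte and platelet markers, 4 of them higher, summed to 493 to 723 against 346 to 349 CPM in the first set and to 440 to 449 against 399 to 409 CPM in the second. None of the markers in these 5 lists was at 0 in all libraries of a CMP set. Of the other lists, 5 of 10 late neutrophil markers (Itgb2l at 0 in both KO libraries) and 5 of 8 mast cell, basophil and eosinophil markers were lower in KO within numbers 1 and 2. So was 1 of 9 lymphoid markers, a share near that of all genes, and 3 of 7 tested erythroid markers were higher. The part of these other cells in the changes of S100a6, S100a11, Anxa1, S100a1 and Tpm4 was not tested.

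**Figure D3:**
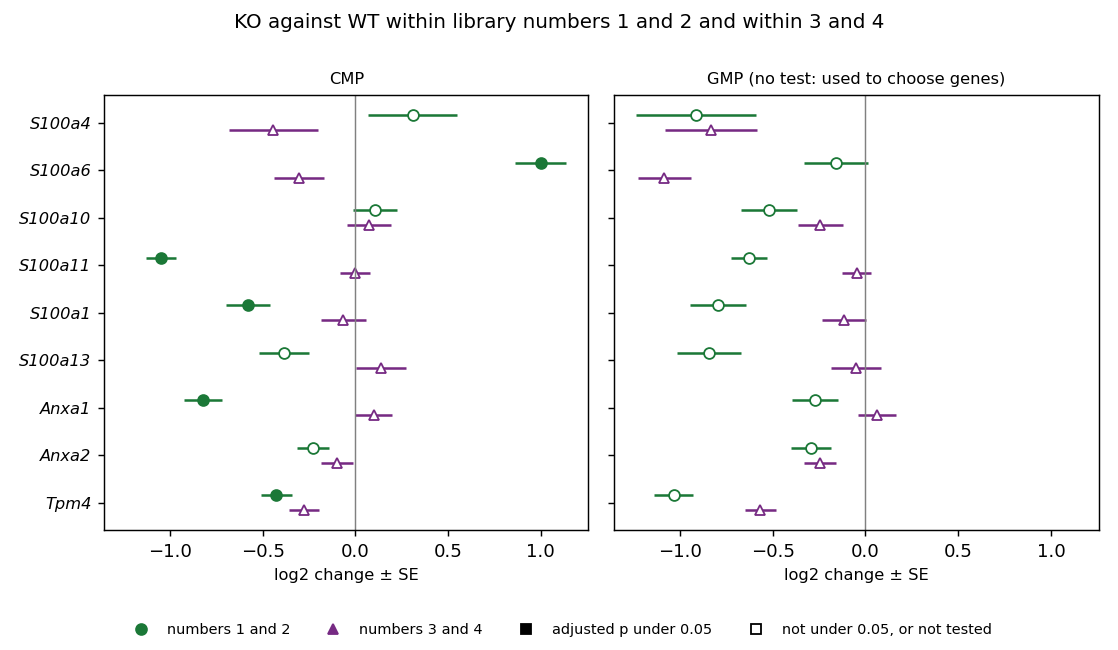
Fitted log2 change of KO against WT with its standard error for each gene, within library numbers 1 and 2 (circles) and within 3 and 4 (triangles), in CMP and in GMP. Filled points passed an adjusted p of 0.05. GMP was not tested because it was used to choose the genes, and its circles rest on 1 KO library. In CMP, S100a6 is at 1.0 for numbers 1 and 2 and at -0.30 for numbers 3 and 4, and S100a11 and Anxa1 are near 0 for numbers 3 and 4.

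In GMP, the comparison that chose the set, S100a6 and Tpm4 are given by their values. Tpm4 measured 56.3, 58.6, 44.0 and 46.8 CPM in WT GMP 1 to 4 and 28.1, 32.1 and 29.3 CPM in KO GMP 1, 3 and 4. The 3 KO libraries lay within a narrow range below every WT library, and the WT libraries numbered 1 and 2 were the highest. The log2 difference was -0.79 ± 0.12, or -42.0%, with -1.03 ± 0.11 within numbers 1 and 2 and -0.57 ± 0.08 within numbers 3 and 4. S100a6 measured 8.24, 9.59, 10.7 and 11.3 CPM in WT GMP 1 to 4 and 7.99, 5.24 and 5.12 CPM in KO GMP 1, 3 and 4. Every KO library was below every WT library, but KO GMP 1 came close to WT GMP 1. The log2 difference was -0.70 ± 0.25, or -38.6%, with -0.16 ± 0.17 within numbers 1 and 2 and -1.08 ± 0.14 within numbers 3 and 4.

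Among the other 7 genes in GMP, S100a1 and S100a10 were also lower in all 3 KO libraries than in any of the 4 WT libraries. Their log2 differences were -0.34 ± 0.17 and -0.38 ± 0.15. S100a4 had a difference of -0.75 ± 0.30, with KO GMP 3 and KO GMP 4 above WT GMP 2. S100a11 (-0.13 ± 0.24), S100a13 (-0.18 ± 0.25), Anxa2 (-0.22 ± 0.16) and Anxa1 (0.10 ± 0.26) overlapped between genotypes. In all, 4 of the 9 genes were lower without overlap, against 3.7% of all genes, and 8 of 9 were below 0, against 47.6% of all genes. Since this comparison chose the set, nothing is read from these counts. In the edgeR test 0 of 15181 genes passed in GMP (0%), 985 had an unadjusted p under 0.05, and DESeq2 called 60 (0.395%).

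KO GMP 1 differed from KO GMP 3 and 4 in several of these genes. S100a11 was at 183 CPM in it against 350 and 360 CPM, Anxa1 at 223 against 446 and 456 CPM, S100a13 at 16.8 against 36.7 and 36.0 CPM, and S100a1 at 36.0 against 53.4 and 52.8 CPM. Within numbers 3 and 4 alone the log2 differences of these 4 genes were -0.05 ± 0.08, 0.06 ± 0.10, -0.05 ± 0.13 and -0.12 ± 0.12, and those of S100a4, S100a10 and Anxa2 were -0.83 ± 0.25, -0.24 ± 0.12 and -0.24 ± 0.09. GMP markers summed to 22198 CPM in KO GMP 1 and to 45440 to 46024 CPM in KO GMP 3 and 4. Stromal and endothelial markers summed to 238 CPM in KO GMP 1 and to 105 to 111 CPM in KO GMP 3 and 4, and megakaryocyte and platelet markers to 302 CPM and to 76.6 to 80.2 CPM. In the 4 WT GMP libraries the same 3 lists summed to 40748 to 44042, 118 to 123 and 89.5 to 99.4 CPM. The 11 monocyte and macrophage markers were lower in all KO GMP libraries, at 951 CPM in KO GMP 1 and 3575 to 3599 CPM in KO GMP 3 and 4 against 4039 to 4723 CPM in WT, and 10 of the 11 had a log2 difference below 0 within numbers 3 and 4 (median -0.32). The 8 mast cell, basophil and eosinophil markers summed to 1740 to 4123 CPM in KO GMP and 2749 to 7737 CPM in WT GMP, and all 8 were below 0 within numbers 3 and 4 (median -0.68). Over all genes the median within numbers 3 and 4 was -0.00074. The part of these markers' cells in the GMP values was not tested. Tpm4 and S100a6 were lower in KO GMP 3 and 4 than in all 4 WT GMP libraries. Both genes were chosen by this comparison, so nothing is read from this.

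Some of the genes kept step with each other from library to library. The CPM ratio of S100a11 to Anxa1 ranged only from 0.79 to 1.24 over the 15 libraries, while S100a11 ran from 86.3 to 369 CPM and Anxa1 from 85.4 to 456 CPM. It was 1.11 to 1.24 in WT CMP, 0.996 to 1.11 in KO CMP, 0.82 to 1.07 in WT GMP and 0.79 to 0.82 in KO GMP. After subtraction of group means, the correlation of the log2 levels of this pair was r = 0.96 over 15 libraries, the highest of the 36 pairs among the 9 genes, and 23 of the 36 pairs had a positive r. For S100a10 and Anxa2 this r was 0.66, and for S100a6 and S100a11 it was -0.68. In WT GMP 1 to 4, S100a10 measured 100.4, 93.8, 80.3 and 84.8 CPM. Anxa2 measured 161, 143, 187 and 177 CPM in the same libraries, so these genes did not rise together there. The ratios and r values are descriptions over libraries that share depth, sort and number set. The CPM ratio of the neighbours S100a6 and S100a4 was 1.03 to 1.42 in WT CMP, 1.38 to 2.45 in KO CMP, 1.37 to 2.90 in WT GMP and 1.20 to 3.23 in KO GMP, and KO GMP 1 had the highest.

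**Figure D4:**
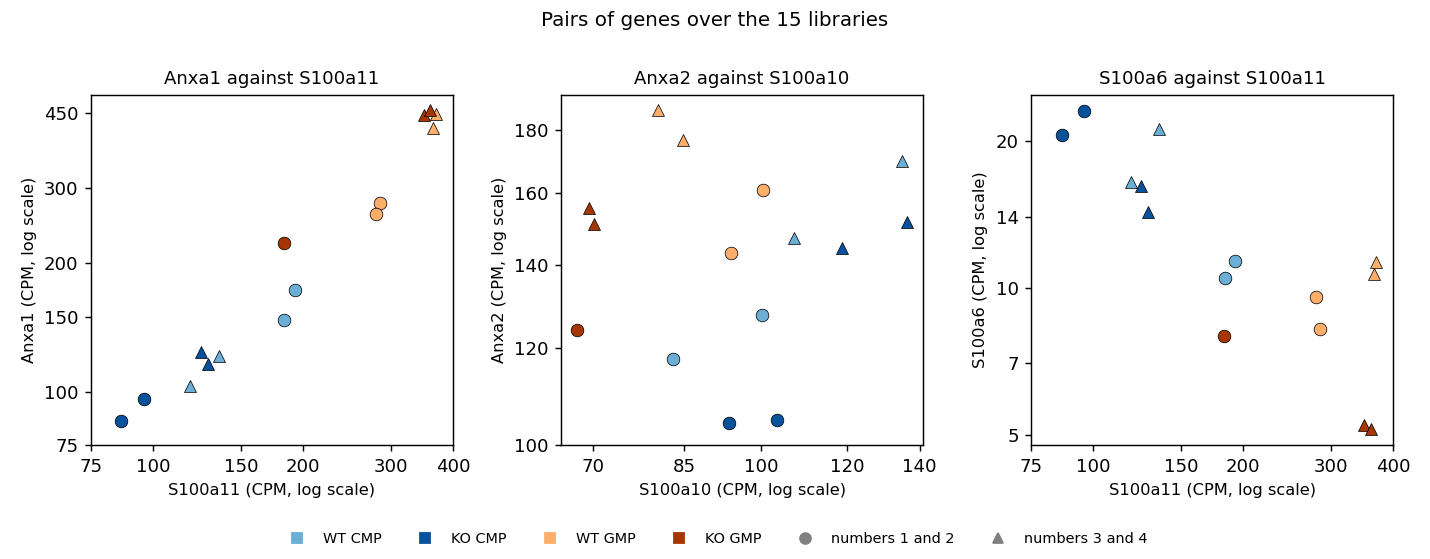
Levels of 3 pairs of genes in the 15 libraries (CPM, log scale on both axes). Colours are the 4 groups, circles libraries numbered 1 and 2, and triangles those numbered 3 and 4. Anxa1 follows S100a11 along 1 line, and S100a6 is high where S100a11 is low. For Anxa2 and S100a10 the CMP and GMP libraries lie apart. Anxa2 rises with S100a10 over the CMP libraries and not over the WT GMP libraries.

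The genes with the pattern most like that of S100a6 over the 15 libraries, by Pearson r of log2(CPM + 1) among 10123 genes with a mean of at least 5 CPM, were Wdsub1 (r = 0.92), Ccdc111 (r = 0.91), Zfp760 (r = 0.89), Stk40 (r = 0.89) and Abhd8 (r = 0.89). Those most like Tpm4 were St3gal2 (r = 0.97), Mllt11 (r = 0.94), Pcmtd2 (r = 0.94), Calhm2 (r = 0.94) and Sgsh (r = 0.92). With group means subtracted, Ccdc111 and Calhm2 kept r values of 0.91 and 0.91 and ranks of 4 and 2, while Pcmtd2 dropped to r = 0.21. These r values span groups that differ, and they describe likeness only.

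Other genes of the S100 families were mostly silent in these cells. The nearest S100 neighbours, S100a5 between S100a4 and S100a6, S100a3 and S100a2 before S100a4, and S100a14 beyond S100a13, were at or under 0.38 CPM in every library. Of 10 other genes with S100 in their name on the list, the 1 that passed the filter was S100pbp. It encodes a binding protein of S100P and not an S100 protein, and it did not pass a test (-0.14 ± 0.19 for KO against WT in CMP, adjusted p = 0.838). The calprotectin genes S100a8 and S100a9 lie in the same cluster, 65.2 and 88.9 kb beyond the start of S100a4. In CMP they fell in KO within numbers 1 and 2, with log2 changes of -6.57 and -5.22 (adjusted p = 1.99e-07 and 4.06e-08). Within numbers 3 and 4 they measured 0.62 ± 0.29 and 0.85 ± 0.19 (adjusted p = 0.450 and 0.234). In WT CMP alone both were higher with numbers 1 and 2 than with 3 and 4, by 4.27 ± 0.32 and 2.18 ± 0.19 (adjusted p = 5.68e-06 and 1.50e-05).

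Among the 7 tested annexins other than Anxa1 and Anxa2, 2 rose and 1 fell from CMP to GMP in WT, where 11.3% of all genes rose and 14.2% fell. Anxa3, an annexin of neutrophil granules, rose by 1.24 ± 0.32 (adjusted p = 0.0120) and Anxa5, which binds phosphatidylserine, by 0.44 ± 0.07 (adjusted p = 0.00092), and Anxa6 fell by 0.37 ± 0.11 on the log2 scale (adjusted p = 0.0240). In CMP, 0 of 7 passed for KO against WT over all libraries, and 2 passed in each direction within numbers 1 and 2, where 8.23% of all genes were higher and 10.2% lower. Anxa3 fell there by 1.89 ± 0.13 on the log2 scale (adjusted p = 7.61e-07) and measured 0.09 ± 0.12 within numbers 3 and 4, a difference between sets that passed (-1.97 ± 0.17, adjusted p = 2.54e-05). In WT CMP alone Anxa3 was higher with numbers 1 and 2 than with 3 and 4, by 0.90 ± 0.12 (adjusted p = 0.00038). The median of the 7 was 0.03 from CMP to GMP in WT, against -0.02 for all genes.

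Of 7 tested tropomyosin and tropomodulin genes besides Tpm4, 0 rose and 3 fell from CMP to GMP in WT, with a list median of -1.10. Of all genes 14.2% fell, and their median was -0.02. The list median is the value of Tmod4, at a mean of 0.73 CPM in WT CMP and 0.34 CPM in WT GMP, which did not pass (adjusted p = 0.136). Tpm2 was also low, at a mean of 2.91 and 1.04 CPM. Tpm1 was at 54.3 and 38.2 CPM and Tpm3 at 671 and 771 CPM. Tpm1 fell by 0.50 ± 0.15 (adjusted p = 0.0212) and Tpm2 by 1.48 ± 0.42 on the log2 scale (adjusted p = 0.0195), while Tpm3 measured 0.20 ± 0.08 (adjusted p = 0.0715). Against the lower Tpm4 in KO CMP stood Tpm1 at 0.44 ± 0.15 over all CMP libraries (adjusted p = 0.264), 0.76 ± 0.10 within numbers 1 and 2 (adjusted p = 0.00020) and 0.12 ± 0.10 within numbers 3 and 4 (adjusted p = 0.667). Tpm1 measured 64.6 to 90.5 CPM in KO CMP and 46.1 to 63.6 CPM in WT CMP.

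Of 14 tested binding partners and receptors of these proteins, 1 rose and 2 fell from CMP to GMP in WT, a share near the 25.5% of all genes that passed. Tlr4, the lipopolysaccharide receptor, rose by 0.85 ± 0.26 (adjusted p = 0.0284), and Ahnak, a large scaffold that binds S100A10 with annexin A2, fell by 1.27 ± 0.42 on the log2 scale (adjusted p = 0.0377). Ahnak measured 14.7 to 104.9 CPM in KO CMP and 57.8 to 99.1 CPM in WT CMP, with a log2 change of -0.82 ± 0.41 (adjusted p = 0.478). Of 31 actin cytoskeleton genes, 5 rose and 2 fell from CMP to GMP in WT, with a median of 0.18 against -0.02 over all genes, and this share too was near that of all genes. For KO against WT in CMP, 0 of 14 partners and 0 of 31 actin genes passed over all libraries in edgeR. Within numbers 1 and 2, 1 partner rose and 1 fell, and 2 actin genes rose and 7 fell, where 8.23% of all genes rose and 10.2% fell, among them Tmsb4x, which sequesters actin monomers (-0.73 ± 0.13, adjusted p = 0.0015). Tmsb4x measured 0.12 ± 0.13 within numbers 3 and 4, and the sets differed (-0.85 ± 0.18, adjusted p = 0.0113).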

How the data were processed

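Gene-level values of 15 RNA-seq libraries were used, 1 file per library. The SMARTER mRNA-Seq kit made the libraries, per the labels' protocols, and HISAT aligned the reads to mm10, per the submitters' processing notes. The deposited values are expected counts (estimated counts) per gene symbol, unscaled between libraries, and the counting tool is not stated. Multiples of 4 made up 38% of the 40915 values from 1 to 40, where an even spread gives 25%, and 4 units were taken as 1 fragment. No pair of libraries agreed within sampling noise. Fragments per library limit the precision of each gene, but the SE also holds the variation between libraries. For KO against WT in CMP the SE was 0.11 for Tpm4 and 0.22 for S100a11, which had more fragments in every library.

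Values were rounded, genes kept by filterByExpr, libraries scaled by TMM, and all 15 libraries entered 1 quasi-likelihood fit with a coefficient per group (edgeR 4.0.16, R 4.3.3, 11 residual degrees of freedom). A second fit had a coefficient for each group within each number set and 7 residual degrees of freedom, and the single KO GMP library of numbers 1 and 2 is assumed to vary like the others. P-values are two-sided, adjusted by Benjamini-Hochberg over all 15181 genes, with a threshold of 0.05. Errors of log2 changes are SE from the fit. The first fit was checked on simulated data for KO against WT in CMP, with no parting of libraries by number. The fit by number set was not checked in this way. DESeq2 1.42.0, other scaling, other filters, values divided by 4, the library number as a block and leaving out libraries were alternatives. For Trappc1, mean log2 CPM was compared by an exact permutation test.

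Same-numbered libraries deviated together from their group means, with r from 0.20 to 0.54 over the 14 pairs. The library number was therefore run as a block in an alternative fit, and the main fit holds no block. In 6 of the 14 pairs a library of another number gave a higher r. Pairing by number comes from the data and the titles, and the labels do not explain the numbers.

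The members, the fixed lists (other S100, annexin, tropomyosin, partner, actin and cell-marker genes) and the split by number were chosen with earlier results of these data known. Named genes are the members, Trappc1, Xist, the 5 genes most like S100a6 and Tpm4, S100 neighbours, and up to 4 members of a list with the smallest p for KO against WT in CMP. Some list members the rule names are left out of the text. Promoters are from RefSeq and gene positions from GENCODE M21, both on GRCm38.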

Additional observations from a re-analysis of the deposited data

Results flagged for a closer look

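The effect of KO in CMP differed between library numbers 1 and 2 and numbers 3 and 4 for 3 of the 9 genes, by the edgeR test of the difference itself. For S100a6 the log2 effect in the first set minus that in the second was 1.30 (adjusted p = 0.0011), with KO higher in the first set and lower in the second. For S100a11 the difference was -1.04 (adjusted p = 0.00011), and for Anxa1 it was -0.92 (adjusted p = 0.0017). Leaving out each CMP library in turn gave differences of 1.10 to 1.47 for S100a6, -1.16 to -0.95 for S100a11 and -1.05 to -0.80 for Anxa1, all past the threshold. The number sets were formed with earlier results of these data known. Within numbers 1 and 2 the KO CMP libraries also differ from WT in Xist (109 and 204 against 2.17 and 0.83 CPM), and genotype cannot be told apart from what Xist marks there. Trappc1 was lower in KO CMP 1 and 2 (5.56 and 3.83 CPM) than in KO CMP 3 and 4 (11.7 and 13.4 CPM). The level of Trappc1 left cannot be told apart from the number set. No single far library was found in the 27 groups of 4 libraries looked at, a test that 4 libraries parting 2 and 2 by number can hardly meet. KO GMP, with 3 libraries, was not tested in this way.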

How the results depend on the processing

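For the 3 tested comparisons between whole groups, the calls of the 9 genes were the same under RLE scaling, DESeq2, values divided by 4, no filter and a fit of the 2 groups compared. For KO against WT in CMP by number set and the difference between sets, they were the same under the first 4 of these, except that S100a13 in CMP with numbers 1 and 2 passed without the filter (-0.40, adjusted p = 0.049998). With the library number as a replicate block, Anxa2 from CMP to GMP in WT passed (0.26, adjusted p = 0.0171), and the block, run for whole groups, changed no other call. The steps from CMP to GMP by number set and the differences between WT sets were not rerun under these alternatives. Counts over all genes moved more. For KO against WT in CMP they were 0 in edgeR, 368 in DESeq2, 2801 within numbers 1 and 2 (with 5 of the 9 genes), 1 within numbers 3 and 4, where DESeq2 called 135 and the unfiltered fit 4, and 1 without KO CMP 1, KO CMP 2 and KO GMP 1. For KO against WT in GMP they were 0 in edgeR, 60 in DESeq2, 5 with number set as a covariate, 3033 within numbers 1 and 2 and 2 within numbers 3 and 4. From CMP to GMP they were 5851 in WT and 5620 in KO within numbers 3 and 4, and 1876 in KO with 2 groups fitted. Within numbers 1 and 2 the sign turned for S100a4 in CMP (0.31), S100a10 from CMP to GMP in WT (0.085) and S100a13 from CMP to GMP in KO (-0.26). Within numbers 3 and 4 it turned for S100a6 (-0.30), S100a13 (0.14) and Anxa1 (0.10) in CMP, and without the 3 libraries for S100a13 (0.18) and Anxa2 (0.063) in CMP. None of these 8 values passed. The cause was not tested.

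Leaving out 1 library at a time gave these ranges. For KO against WT in CMP, S100a4 ran from -0.25 to 0.0072, S100a10 from -0.020 to 0.22, S100a13 from -0.21 to 0.053, and all genes called from 0 to 50, the highest without WT CMP 4. Within numbers 1 and 2, S100a10 ran from -0.025 to 0.25 and S100a13 from -0.58 to -0.21. Within numbers 3 and 4, S100a1 ran from -0.19 to 0.064, S100a10 from -0.083 to 0.25, S100a11 from -0.094 to 0.094, S100a13 from -0.021 to 0.31, Anxa1 from -0.014 to 0.22, Anxa2 from -0.20 to 0.0067, and all genes called from 0 to 46, the highest without KO CMP 1. In the difference between sets, S100a10 ran from -0.16 to 0.19, all genes called from 743 (without KO CMP 4) to 1432, and genes of the 9 called from 3 to 5 (without WT CMP 4). From CMP to GMP, all genes called ran from 1656 (without KO GMP 3, and 1763 without KO GMP 4) to 4390 in KO and from 2430 (without WT CMP 3) to 3910 in WT. Depth limits S100a4 and S100a6 most, and KO GMP within numbers 1 and 2 is 1 library.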
